A study of Rattus norvegicus with 12 samples.

Results

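The DNA replication genes are 37 rat genes whose products license replication origins, open the DNA helix, copy both strands, join the fragments of the lagging strand, supply deoxynucleotides and commit the cell to S phase. They were chosen by name, all 37 were found in each of the 3 deposited tables, and 12899 genes were common to those tables. The tables held 13373 genes for PLKO_TNF and PLKO_CTR, 13305 for shTon_CTR and PLKO_CTR, and 13176 for shTon_TNF and PLKO_TNF. RNA was sequenced from primary nucleus pulposus cells, the cells at the centre of the intervertebral disc, which grew out of explants of Wistar rat spines in serum-containing medium. All cells carried a lentiviral shRNA vector. In shTon_TNF libraries the shRNA targeted TonEBP and the cells had received 50 ng/mL of the inflammatory cytokine TNF-a for 24 h. In shTon_CTR libraries the shRNA targeted TonEBP and no TNF-a was given. PLKO_TNF libraries came from control-vector cells given the same TNF-a treatment, and PLKO_CTR libraries from untreated control-vector cells. Each group had 3 libraries, numbered as sets 1, 2 and 3. What a set stands for (animal, culture or day) is not stated in the labels, and the p-values cover no more than the spread among these libraries.

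Replication starts when the origin recognition complex, with Cdc6 and Cdt1, loads the Mcm2 to Mcm7 ring onto DNA during G1. In S phase Cdc45 and the GINS complex activate that ring as the replicative helicase, primase and the DNA polymerases copy the strands, and the sliding clamp Pcna keeps the polymerases on their template. Most of these genes are transcribed in late G1 and early S phase under E2F transcription factors, so their RNA is commonly read as a measure of how many cells are entering or passing through S phase. TonEBP, the product of Nfat5, is the transcription factor with which cells adapt to high osmolarity. Nucleus pulposus cells of the adult disc divide rarely, whereas explant cultures in serum hold dividing cells. In bulk RNA, fewer cells in S phase and less RNA per cell cannot be told apart.

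The promoters of these genes are shown first because many of them share a sequence feature, the E2F word. RefSeq promoter sequences of the rat assembly GRCr8 were matched for 31 of the 37 genes. No entry was matched for Cdc6, Mcm4, Orc1, Rrm2, E2f1 and Ccne2. Each window runs from 250 bases before to 50 bases after the annotated gene start, 300 bases in all. An E2F word, which is TTTCCCG or one of the variants TTTGGCG and TTTCGCG, on either strand, was found in 19 of the 31 windows (61.3%), against 5.89% of all 27457 windows in the table. The words can overlap each other on opposite strands, and each match was counted. The NF-Y word CCAAT was in 64.5% of the members' windows and in 37.7% of all windows. The word TTTGAA of the cell-cycle homology region, which marks genes of G2 and mitosis, was in 9.68% of the members' windows and in 18.1% of all. The TonEBP core word TGGAAA was in 12.9% of the members' windows and in 22.4% of all. A match describes letters in a window and is not evidence of binding. The 5 windows below belong to the members with an E2F word and the smallest p for the knockdown without TNF. They are written 5′ to 3′ on the strand of the gene, with the E2F words in capitals. The windows lie at chr13:42404303-42404602 (minus strand) for Mcm6, chr19:13488563-13488862 (plus strand) for Mcm5, chr12:48153996-48154295 (minus strand) for Ung, chr9:30733697-30733996 (minus strand) for Mcm3 and chr9:120776034-120776333 (minus strand) for Tyms.
Mcm6: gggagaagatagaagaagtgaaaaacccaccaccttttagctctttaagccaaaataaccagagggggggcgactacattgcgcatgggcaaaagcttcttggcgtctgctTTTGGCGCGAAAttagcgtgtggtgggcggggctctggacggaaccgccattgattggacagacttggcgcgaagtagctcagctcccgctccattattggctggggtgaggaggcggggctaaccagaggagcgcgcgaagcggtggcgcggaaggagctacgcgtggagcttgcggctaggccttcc
Mcm5: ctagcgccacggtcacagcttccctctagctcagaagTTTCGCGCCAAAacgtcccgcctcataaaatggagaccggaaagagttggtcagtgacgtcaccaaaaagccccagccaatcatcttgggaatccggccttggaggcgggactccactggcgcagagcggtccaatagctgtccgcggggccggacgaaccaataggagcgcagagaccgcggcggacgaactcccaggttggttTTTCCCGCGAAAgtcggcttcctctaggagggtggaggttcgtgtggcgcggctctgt
Ung: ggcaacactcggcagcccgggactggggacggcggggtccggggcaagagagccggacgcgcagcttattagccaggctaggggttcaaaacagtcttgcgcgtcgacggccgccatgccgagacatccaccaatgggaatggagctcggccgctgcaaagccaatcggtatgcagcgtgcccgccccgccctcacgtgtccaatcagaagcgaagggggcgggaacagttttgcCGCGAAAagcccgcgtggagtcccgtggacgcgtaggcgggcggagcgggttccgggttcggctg
Mcm3: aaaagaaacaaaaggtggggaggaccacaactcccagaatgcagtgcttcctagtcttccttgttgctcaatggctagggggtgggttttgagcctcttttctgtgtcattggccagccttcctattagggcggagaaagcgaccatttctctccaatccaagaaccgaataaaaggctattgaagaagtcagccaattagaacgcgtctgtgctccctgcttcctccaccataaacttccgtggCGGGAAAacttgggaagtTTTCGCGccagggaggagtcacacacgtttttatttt
Tyms: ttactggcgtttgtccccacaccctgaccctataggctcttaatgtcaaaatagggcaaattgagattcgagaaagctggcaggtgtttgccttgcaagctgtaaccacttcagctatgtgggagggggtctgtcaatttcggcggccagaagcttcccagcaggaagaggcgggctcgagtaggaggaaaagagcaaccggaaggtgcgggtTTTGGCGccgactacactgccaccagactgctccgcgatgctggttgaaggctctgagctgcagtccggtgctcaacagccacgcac

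**Figure D1:**
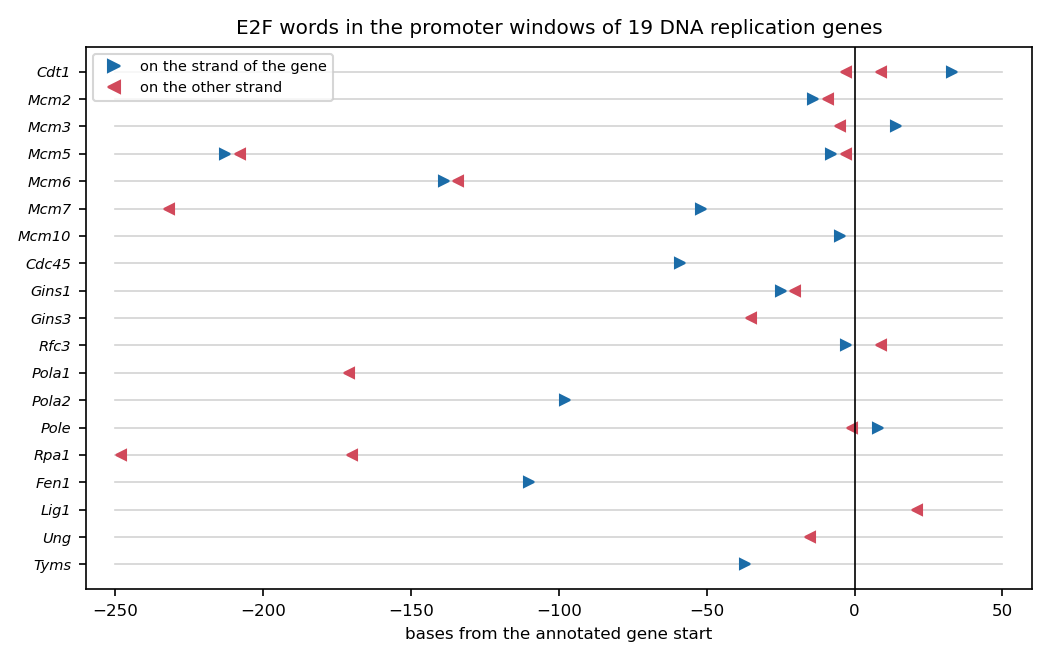
Position of each E2F word in the promoter windows of the 19 members that held one, in bases from the annotated gene start (0), with the strand shown by the direction of the triangle. Of the 32 words, 20 lay within 50 bases of the start, in 12 members.

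The Mcm5 window held 4 words, a pair near the gene start and a pair more than 200 bases before it. In Mcm6 the pair of words lay 139 and 134 bases before the start. The words of Mcm3 lay on either side of the start, 5 bases before and 13 bases after it. Ung and Tyms held 1 word each, 15 and 37 bases before the start.

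Reads on the listed genes numbered 7160042 to 18645538 per library. Values are given as normalised reads, which are reads divided by 1 factor per library so that libraries of unequal depth can be compared. Per gene, the 12-library means of the members were 41.5 to 1602 normalised reads, 29 of the 37 were at 100 or more, and the lowest value in any library was 22.1. All 37 passed the filter of a mean of at least 10 normalised reads in every comparison. Nfat5, the target of the shRNA, had 1695, 499.7 and 232 normalised reads in shTon_TNF, 458, 457 and 288 in shTon_CTR, 642, 1092 and 483 in PLKO_TNF and 685, 1363 and 1818 in PLKO_CTR libraries of sets 1, 2 and 3. It was lower in each shTon library than in the PLKO library of its set, except that the library labelled shTon_TNF of set 1 was above PLKO_TNF. The counts and medians of each comparison that uses the shTon_TNF libraries are therefore also given without set 1. Summed skeletal muscle markers had medians of 66557, 17990 and 222 normalised reads in sets 1, 2 and 3, over the 11 of 15 listed genes that were in the joined table. In set 3, Myh1, Myog and Tnni2 were listed at 0 in all 4 libraries. Of 13 nucleus pulposus and notochord markers 5 were in the joined table, and they ran in different directions among sets. Car3 had 8855, 2809 and 3.03 normalised reads in shTon_TNF, 13348, 4741 and 11.7 in shTon_CTR, 6443, 2679.9 and 8.88 in PLKO_TNF and 8729, 4048 and 45.8 in PLKO_CTR libraries of sets 1, 2 and 3, highest in set 1 like the muscle markers. Krt8 was highest in set 3, with 93.9, 110.0 and 1364 in shTon_TNF, 194, 192 and 2163 in shTon_CTR, 64.2, 68.3 and 1329 in PLKO_TNF and 209, 122 and 2278 in PLKO_CTR libraries. The summed level of the 5 markers, 6645 to 13734 in set 1, 2952 to 5244 in set 2 and 1454 to 2530 in set 3, was mostly Car3 in sets 1 and 2 and mostly Krt8 in set 3. T, Krt18, Krt19, Car12, Ovos2, Acan, Col2a1 and Sox9 were not in the joined table, so their levels are not given here. Muscle markers thus differed far more among sets than between the groups within a set. Their sums were still 95783, 29524 and 256 in shTon_CTR and 53171.5, 19454 and 190 in PLKO_CTR libraries, higher in shTon_CTR in each set. With TNF they were 79942, 16248 and 254 in shTon_TNF and 41965, 16526 and 171 in PLKO_TNF libraries, higher in shTon_TNF in sets 1 and 3. In set 2 the shTon_TNF sum was slightly lower. The part of the muscle markers in the results below was not tested.

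**Figure D2:**
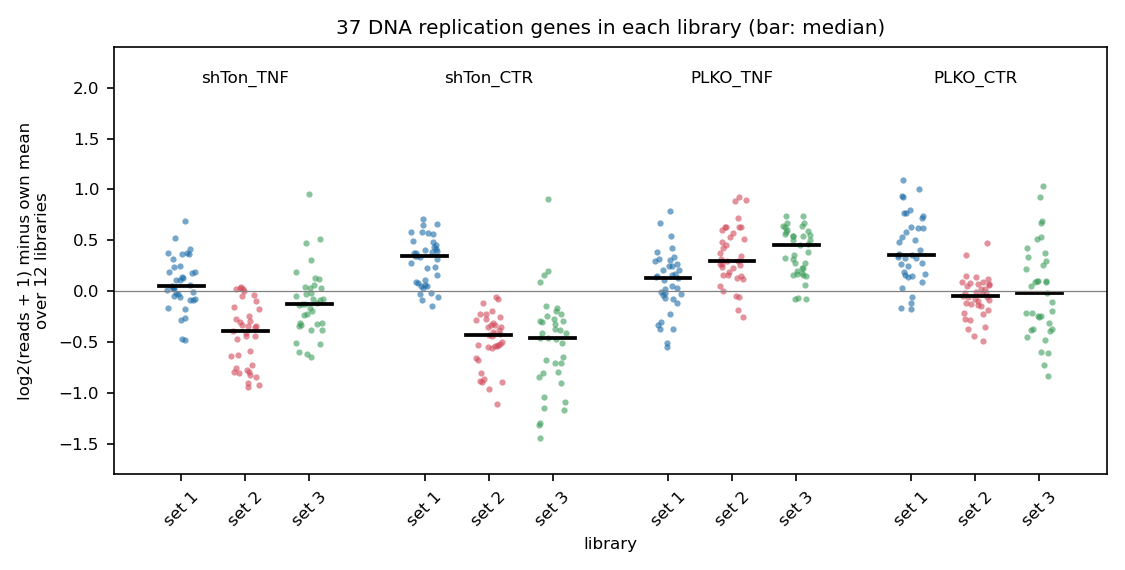
Each point is 1 of the 37 genes in 1 library, as log2(normalised reads + 1) minus the gene's own mean over the 12 libraries, and each bar is the median of the 37 genes. The shTon libraries of sets 2 and 3 had medians of -0.39 and -0.12 with TNF and -0.43 and -0.46 without, whereas all 4 medians of set 1 were above 0.

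Across the 12 libraries the members varied by different amounts. The origin-licensing gene Orc1 had the largest SD, 0.82 on the log2 scale, followed by Cdc6 at 0.76 and Mcm5 at 0.69. The clamp-loader genes Rfc2 and Rfc5 had the smallest, 0.21 and 0.24. The libraries also stood apart as wholes. In the shTon_CTR library of set 2 all 37 genes were below their own 12-library mean, and in the shTon_CTR library of set 3 there were 33 below it and 4 above. In set 1 the genes above their own mean numbered 23 in shTon_TNF, 32 in shTon_CTR, 23 in PLKO_TNF and 33 in PLKO_CTR.

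The first comparison asks how knockdown of TonEBP bears on the replication genes in cells without TNF. No member passed an adjusted p of 0.05 in limma, while 35 of the 37 (94.6%) were lower by value in shTon_CTR than in PLKO_CTR cells, against 49% of all 12383 genes tested. Their median log2 fold change was -0.32, beside 0.01 for all genes. Within sets the members' medians were -0.15, -0.40 and -0.47 in sets 1, 2 and 3, with 25, 34 and 35 members lower, against 48%, 50% and 49.7% of all genes. In all 3 sets 22 members were lower (59.5%, against 20.2% of all genes) and 0 were higher (against 20.6%). The fold changes were fitted on log2(normalised reads + 1), which understates the change of genes with few reads.

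Only 14 genes of all those tested passed the adjusted threshold in this comparison, a share of 0.113%. At an unadjusted p under 0.05 there were 14 members, all lower (37.8%, against 9.28% of all genes). Without set 2 that count was 4, against 5.32% of all genes, and the members' median was -0.26. The edgeR quasi-likelihood test and DESeq2 on the recovered reads also called 0 members. Of the members only Prim1 was lower in the authors' deposited table at an adjusted p under 0.05, with a log2 fold change of -0.61, among 3.05% of listed genes called in that table.

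Among the origin-licensing genes all 4 were lower in all 3 sets. Cdc6, the loader of the Mcm ring, had 152, 61.2 and 45.5 normalised reads in shTon_CTR and 219.7, 119 and 74.9 in PLKO_CTR libraries of sets 1, 2 and 3. Each shTon_CTR value lay below its set partner, but the groups overlapped because set 1 was high in both. The log2 fold change of Cdc6 was -0.74 (SE 0.19, n = 3 sets, adjusted p = 0.135 in limma). Cdt1, which brings the Mcm ring to the origin, had 107, 32.4 and 44.2 in shTon_CTR and 144, 62.7 and 51.0 in PLKO_CTR libraries. It was lower in every set, again with overlap between the groups and with set 1 highest in both. The other two, Orc1 and Orc6, subunits of the origin recognition complex, had log2 fold changes of -0.74 and -0.19.

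All 6 subunits of the Mcm ring were lower by value, with a median log2 fold change of -0.46 and a range of -0.83 to -0.24. Mcm5 had 396, 142 and 107 normalised reads in shTon_CTR and 452, 262 and 284 in PLKO_CTR libraries. Mcm6 had 897, 365 and 407 in shTon_CTR and 994, 630.3 and 862 in PLKO_CTR libraries. For both genes the difference was small in set 1 and large in sets 2 and 3, and the groups overlapped only through the shTon_CTR library of set 1. The log2 fold changes were -0.83 for Mcm5 (SE 0.23, adjusted p = 0.151) and -0.68 for Mcm6 (SE 0.18, adjusted p = 0.146) in limma. Mcm3 followed the same order, at 593, 293 and 207 in shTon_CTR and 658, 448 and 394 in PLKO_CTR libraries. Mcm7 was lower in each set as well, at 804, 547 and 380.0 in shTon_CTR and 1020.2, 637 and 534 in PLKO_CTR libraries. Mcm2 and Mcm4, in contrast, were slightly higher in shTon_CTR in set 1 and lower in the other sets. For Mcm2 the values were 920.3, 524 and 635 in shTon_CTR and 908, 677 and 845 in PLKO_CTR libraries. For Mcm4 they were 708, 477 and 423 in shTon_CTR and 693, 568 and 588 in PLKO_CTR libraries. RefSeq lists pseudogenes of Mcm2, Mcm4, Mcm7 and Pcna and a gene named Rrm2l1 beside Rrm2, and the sources used here do not say how reads matching several places were counted, so those values are uncertain.

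**Figure D3:**
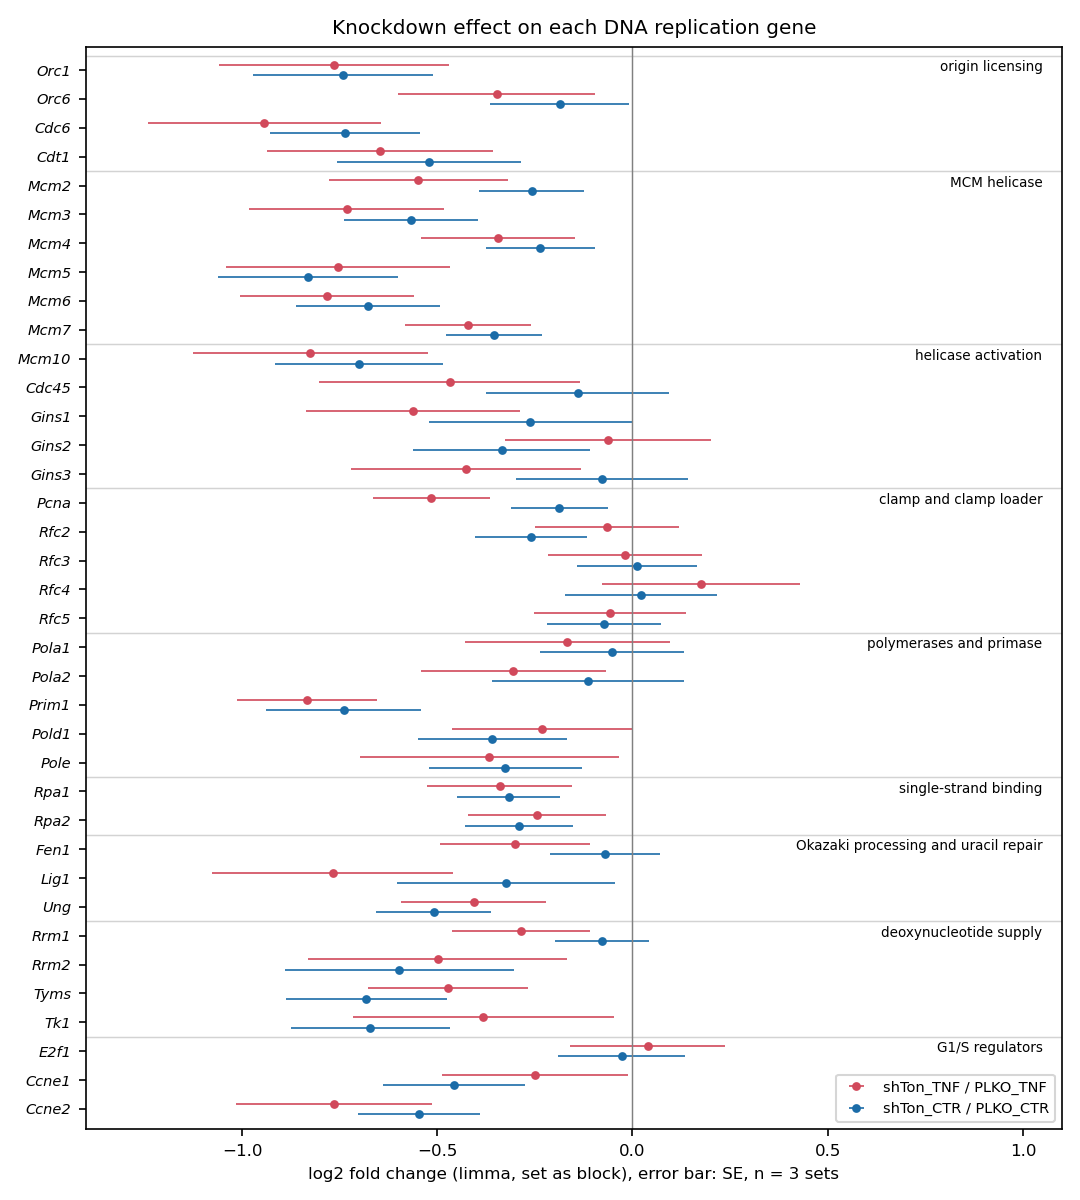
Log2 fold change of each of the 37 genes under TonEBP knockdown with TNF (red, shTon_TNF over PLKO_TNF) and without TNF (blue, shTon_CTR over PLKO_CTR), from limma with the set as a block. Bars are 1 SE over 3 sets; 35 of 37 estimates lay below 0 in each comparison, with Rfc4 above 0 in both.

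Of the genes that activate the helicase, all 5 were lower by value, from Mcm10 at -0.70 to Gins3 at -0.08. Mcm10, which helps the loaded ring begin to unwind DNA, was lower in all 3 sets, and so was the GINS subunit Gins2. Clamp and clamp-loader genes showed the smallest estimates, with a median of -0.07 over 5 genes and 3 of the 5 lower. The clamp Pcna had 1907, 1023 and 1033 normalised reads in shTon_CTR and 2512, 1087 and 1079.8 in PLKO_CTR libraries. Set 1 held more Pcna reads than sets 2 and 3 in both groups, and within sets 2 and 3 the libraries nearly coincided. Rfc3 and Rfc4, subunits of the complex that opens the clamp, were the 2 members not lower by value, at 0.01 and 0.02.

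Among the polymerases the estimates spread widely, from -0.05 for Pola1 to -0.74 for Prim1. Prim1, the catalytic subunit of primase that makes the RNA primers, had 411, 265 and 293 normalised reads in shTon_CTR and 566, 353 and 739 in PLKO_CTR libraries. It was lower in every set, most in set 3, and the groups overlapped. Its log2 fold change was -0.74 (SE 0.20, adjusted p = 0.141 in limma). Pola1 and Pola2, polymerase subunits bound to primase, differed little, at -0.05 and -0.11. Pold1 and Pole, the catalytic subunits of the lagging-strand and leading-strand polymerases, were at -0.36 and -0.33. The single-strand binding genes Rpa1 and Rpa2 were at -0.32 and -0.29 and were lower in all 3 sets.

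Of the genes that process Okazaki fragments or remove uracil from DNA, Ung was lower in every set at -0.51, the ligase gene Lig1 was at -0.32 and the flap nuclease gene Fen1 at -0.07. Tyms and Tk1, both of deoxynucleotide supply, were the 2 members whose groups did not overlap. Tyms, the enzyme that makes thymidylate, had 309, 196 and 160.1 normalised reads in shTon_CTR and 335, 336 and 353 in PLKO_CTR libraries. Tk1, which salvages thymidine, had 92.3, 67.2 and 79.4 in shTon_CTR and 117, 108 and 158 in PLKO_CTR libraries. Every shTon_CTR value of these 2 genes lay below every PLKO_CTR value, as it did for 5.13% of all genes tested. A count of 2 of 37 members is near that share. Rrm2, the small subunit of ribonucleotide reductase, had 112, 42.0 and 42.9 in shTon_CTR and 96.7, 74.1 and 98.8 in PLKO_CTR libraries. It was higher in shTon_CTR in set 1 and lower in sets 2 and 3. Rrm1, the large subunit, had an estimate of -0.08.

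Of the G1/S regulators, E2f1, the transcription factor that activates many of these genes, showed the smallest difference. It had 340.1, 164 and 164 normalised reads in shTon_CTR and 283, 184 and 184 in PLKO_CTR libraries, higher in shTon_CTR in set 1 and lower in the others. The E-type cyclins, which drive entry into S phase, were lower in every set with overlapping groups. Ccne1 had 238, 125 and 74.2 in shTon_CTR and 278, 159 and 129 in PLKO_CTR libraries. Ccne2 had 409.8, 181 and 117 in shTon_CTR and 498, 274 and 198 in PLKO_CTR libraries. Their log2 fold changes were -0.46 and -0.55.

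When set 1 was left out, 2 members fell at an adjusted p under 0.05 in limma, against 1.76% of all genes called lower. These were Mcm6 at a log2 fold change of -0.94 (adjusted p = 0.0469) and Mcm5 at -1.15 (adjusted p = 0.0491), both called from sets 2 and 3. Outside the members, 0 of 38 identifiers of other replication genes and 0 of 17 S-phase chromatin and repair genes were called in limma, and 10 and 6 had an unadjusted p under 0.05. Of these lists 30 and 15 were lower by value, with medians of -0.14 and -0.27. Annulus fibrosus and fibroblast markers, 7 of 8 in the joined table, summed to 74348, 116743 and 38439 normalised reads in shTon_CTR and 37292, 88987 and 33493 in PLKO_CTR libraries of sets 1, 2 and 3, higher in shTon_CTR in each set. Their median log2 fold change was 0.51, with 0 of 7 called in limma and 5 at an unadjusted p under 0.05. Of 11 skeletal muscle markers 1 was lower by value, with a median of 0.39. None of the 11 was called in limma, and 5 had an unadjusted p under 0.05, against 17% of all genes. The part of either marker list in the result was not tested.

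The knockdown was then compared in cells given TNF. No member passed the adjusted threshold in limma, and 35 of 37 (94.6%) were lower by value in shTon_TNF than in PLKO_TNF cells, against 47.6% of all 12213 genes tested. The members' median log2 fold change was -0.41, beside 0.02 for all genes. The sets differed: the medians were -0.03, -0.63 and -0.54 in sets 1, 2 and 3, and 20, 37 and 32 members were lower, against 48.8%, 49.4% and 49.3% of all genes. In all 3 sets 16 members were lower (43.2%, against 19.8% of all genes) and 0 were higher (against 20.5%). Without TNF and with TNF alike, 14 members were lower in all 3 sets. These were Cdc6, Cdt1, Orc1, Mcm6, Mcm7, Mcm10, Pcna, Prim1, Rpa1, Rpa2, Fen1, Ung, Tyms and Ccne2. The 2 knockdown comparisons share no library but share the sets. The share of all genes lower in all 3 sets of both comparisons is not given here.

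Of all genes tested 31 were called here, a share of 0.254%. At an unadjusted p under 0.05 there were 13 members, all lower (35.1%, against 8.38% of all genes). Without set 2 that count was 1, against 4.58% of all genes. The edgeR test called 0 members. DESeq2 called 1, Prim1, at an adjusted p of 0.0295, beside 1.62% of all genes called lower. Without set 1 DESeq2 no longer called Prim1 (adjusted p = 0.153) and called Mcm6, Mcm3 and Mcm5, beside 1.21% of all genes called lower, a setting chosen after the data were seen. Prim1 was also the only member called in the authors' deposited table, lower with a log2 fold change of -0.71, where 2.82% of listed genes were called. For 11 members every shTon_TNF value lay below every PLKO_TNF value, as it did for 6.89% of all genes. They were Cdc6, Cdt1, Mcm6, Mcm7, Mcm10, Pcna, Prim1, Lig1, Ung, Tyms and Ccne2. Over sets 2 and 3 alone, 32 of 37 members were lower in both sets, against 30.3% of all genes, and for 30 the groups did not overlap, against 18.4%.

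**Figure D4:**
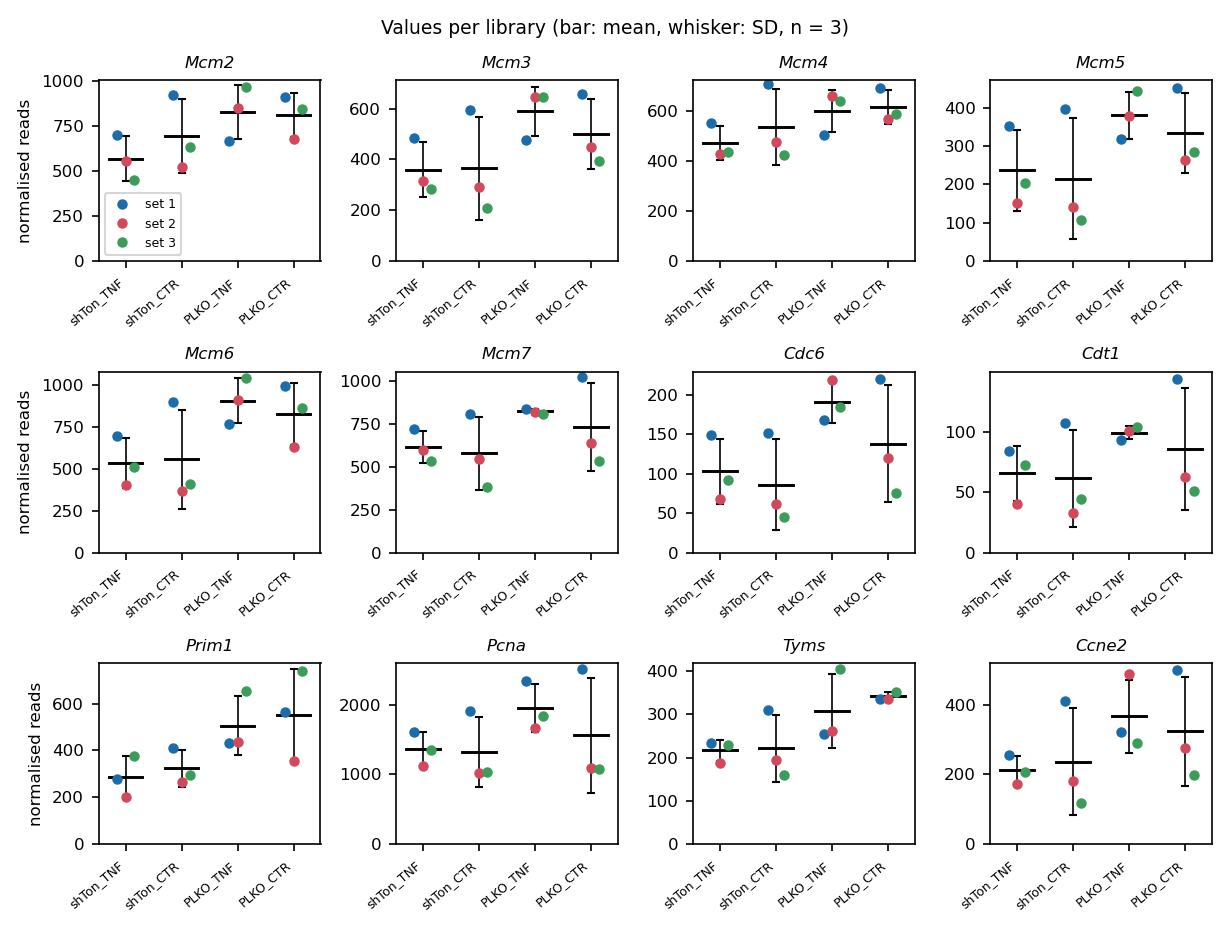
Normalised reads of 12 members in each library, with the 4 groups on the horizontal axis, points coloured by set, bars at the group mean and whiskers of 1 SD (n = 3). In Cdc6, Cdt1, Mcm6, Mcm7, Prim1, Pcna, Tyms and Ccne2 the 3 shTon_TNF points lie below the 3 PLKO_TNF points, while set 1 of shTon_CTR overlaps PLKO_CTR in all panels but Tyms.

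Prim1 had 279.6, 202 and 377 normalised reads in shTon_TNF and 432, 434 and 652 in PLKO_TNF libraries of sets 1, 2 and 3. Its groups were fully separated, with set 3 the highest in both. The log2 fold change was -0.83 (SE 0.18, n = 3 sets, adjusted p = 0.103 in limma). Cdc6 had 148, 67.7 and 92.4 in shTon_TNF and 168, 219 and 184 in PLKO_TNF libraries. Set 1 was the highest shTon_TNF library and the lowest PLKO_TNF library, so the difference was narrow there and wide in set 2. The log2 fold change of Cdc6 was -0.94 (SE 0.30, adjusted p = 0.187). Cdt1 had 84.3, 40.3 and 72.7 in shTon_TNF and 93.2, 100.3 and 104 in PLKO_TNF libraries, also without overlap. Orc1 was lower in all 3 sets at -0.76, and Orc6 was at -0.35.

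The Mcm ring divided by set. Mcm6 had 694, 401 and 510.2 normalised reads in shTon_TNF and 769, 910.4 and 1039.7 in PLKO_TNF libraries, and Mcm7 had 717, 595 and 534 in shTon_TNF and 838, 818 and 806 in PLKO_TNF libraries. These were the 2 subunits lower in every set, and their groups did not overlap. The log2 fold change of Mcm6 was -0.78 (SE 0.22, adjusted p = 0.160 in limma). The other 4 subunits were higher in shTon_TNF in set 1 and lower in sets 2 and 3. Mcm2 had 697, 554 and 448 in shTon_TNF and 666, 849.5 and 965 in PLKO_TNF libraries. Mcm3 had 483, 314 and 282 in shTon_TNF and 477, 645 and 645 in PLKO_TNF libraries. In set 1 the Mcm3 pair nearly coincided, and in sets 2 and 3 shTon_TNF was the lower. Mcm4 had 553, 430.0 and 435 in shTon_TNF and 506, 659.6 and 640.3 in PLKO_TNF libraries. Mcm5 had 353, 152 and 203 in shTon_TNF and 318, 378 and 443 in PLKO_TNF libraries. The groups overlapped for these 4 genes.

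Helicase activation genes were all lower by value, from Mcm10 at -0.83 to Gins2 at -0.06. Gins3 had 91.8, 37.3 and 60.6 normalised reads in shTon_TNF and 84.0, 76.8 and 79.9 in PLKO_TNF libraries, higher in shTon_TNF in set 1 and lower in the others. Pcna had 1607, 1124 and 1352 in shTon_TNF and 2341, 1673 and 1837 in PLKO_TNF libraries. It was lower by a similar ratio in each set, with per-set log2 ratios of -0.53, -0.57 and -0.45. Its log2 fold change was -0.52 (SE 0.15, adjusted p = 0.165 in limma). The clamp-loader genes Rfc2, Rfc3, Rfc4 and Rfc5 were at -0.07, -0.02, 0.18 and -0.06. These estimates lay closer to 0 than that of Pcna, and the difference between genes was not tested.

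Lig1, which seals the nicks between Okazaki fragments, had 33.1, 25.5 and 25.7 normalised reads in shTon_TNF and 43.2, 47.0 and 55.8 in PLKO_TNF libraries. Its groups did not overlap, at few reads per library. Ung had 302, 278 and 280.1 in shTon_TNF and 325, 423 and 403 in PLKO_TNF libraries, again with no overlap. Tyms had 234, 189 and 229 in shTon_TNF and 255, 263 and 406 in PLKO_TNF libraries. The separation of Tyms was narrow in set 1 and wide in set 3. Rrm2 had 69.4, 35.3 and 62.1 in shTon_TNF and 55.0, 80.0 and 100.2 in PLKO_TNF libraries, with set 1 running the other way. E2f1 showed no common direction, at 278, 174 and 221 in shTon_TNF and 235, 207 and 204 in PLKO_TNF libraries. Ccne2 had 255, 173 and 207 in shTon_TNF and 322, 487 and 290.4 in PLKO_TNF libraries, without overlap. Ccne1 had 210.2, 157 and 149.9 in shTon_TNF and 189.6, 277 and 159.8 in PLKO_TNF libraries, with set 1 higher in shTon_TNF.

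Without set 1, whose library labelled shTon_TNF goes against its label for Nfat5, 8 members fell at an adjusted p under 0.05 in limma. That is 21.6% of the members, against 2.51% of all genes called lower, and the members' median was -0.59. The 8 were Mcm6 at -1.10, Mcm5 at -1.21, Mcm3 at -1.11, Cdc6 at -1.33, Prim1 at -0.94, Mcm10 at -1.23, Mcm2 at -0.86 and Ccne2 at -0.99. Without set 2, 0 members were called, 29 of 37 were lower by value, against 48.5% of all genes, and the median was -0.21. Without set 3, 0 were called and the median was -0.33. The calls therefore depend on which sets are in the fit. Among other replication genes 0 of 37 and among S-phase chromatin and repair genes 0 of 17 were called in limma with all sets. At an unadjusted p under 0.05 there were 9 and 5, against 2079 of 12213 genes. By value 27 and 17 genes of these lists were lower, with medians of -0.29 and -0.46. Without set 1 there were 3 called of the first list, Atad5, Wdhd1 and Orc2, and 2 of the second, Cdca7 and Dtl. All were lower and were named after their values were seen. In that fit 15 and 11 had an unadjusted p under 0.05, against 2097 of 12092 genes. The fibroblast markers summed to 79890.5, 89848 and 24802 normalised reads in shTon_TNF and 27255, 35739 and 28222 in PLKO_TNF libraries of sets 1, 2 and 3. The sum was higher in shTon_TNF in sets 1 and 2 and lower in set 3. In set 3 Pdgfra had 4410 in shTon_TNF and 17730.5 in PLKO_TNF, and Thbs4 was lower in shTon_TNF as well. Col1a1 (12938 and 5666), Col1a2, Col3a1, Scx and Mkx were higher in shTon_TNF in that set. The median log2 fold change of the fibroblast markers was 0.88, with 4 of 6 at an unadjusted p under 0.05. The collagen gene Col3a1, the 1 marker called, rose by 1.53 (SE 0.21, adjusted p = 0.0389 in limma). Of 11 skeletal muscle markers 2 were lower by value, with a median of 0.30, 0 called in limma and 1 at an unadjusted p under 0.05. The part of either marker list in the result was not tested.

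TNF was next compared in control-vector cells. No member passed the adjusted threshold in limma, where 9.62% of 12373 genes did, and edgeR and DESeq2 also called 0 members. At an unadjusted p under 0.05, 2 members were higher (5.41%, against 14.1% of all genes) and 1 was lower (2.7%, against 14.9%). By value 28 of 37 were higher in PLKO_TNF than in PLKO_CTR cells (75.7%, against 48.3%), with a median log2 fold change of 0.15 beside -0.01 for all genes. The sets disagreed in direction: the members' median was -0.36 in set 1 with 34 lower (against 51% of all genes), 0.48 in set 2 with 4 lower (51%), and 0.32 in set 3 with 5 lower (50.1%).

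**Figure D5:**
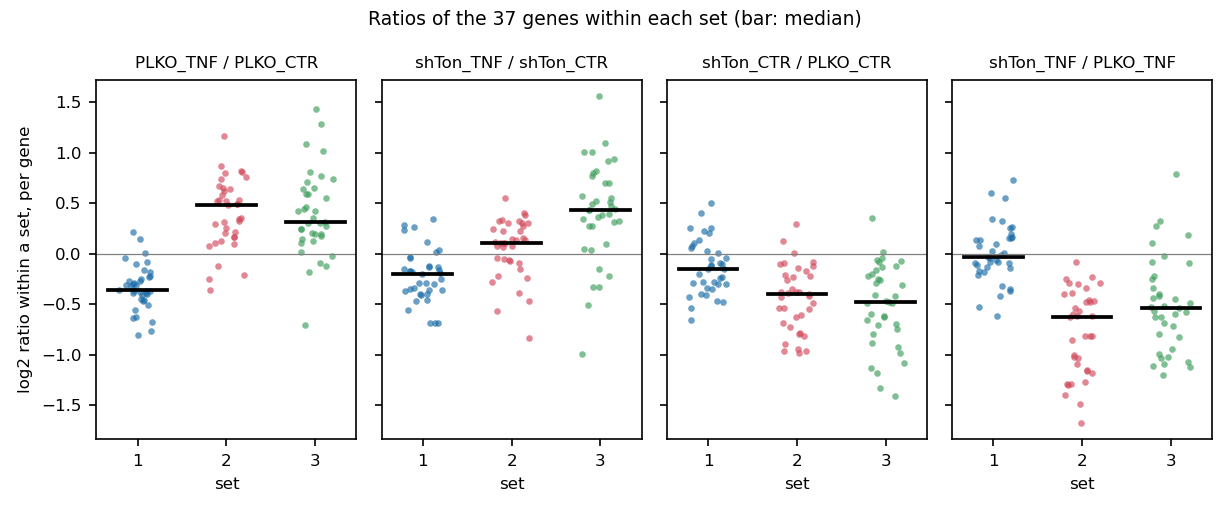
Log2 ratio of each of the 37 genes within each set for the 4 comparisons, with the bar at the median. Set 1 lies below 0 for TNF in PLKO cells (-0.36) while sets 2 and 3 lie above it (0.48 and 0.32), and the knockdown medians with TNF are -0.03, -0.63 and -0.54.

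Rrm1, the large subunit of ribonucleotide reductase, had 1160.2, 1256 and 1878 normalised reads in PLKO_TNF and 1436, 1370.1 and 3072 in PLKO_CTR libraries. It was lower with TNF in every set, with overlap because set 3 was high in both groups. Its log2 fold change was -0.38 (SE 0.13, n = 3 sets, adjusted p = 0.107 in limma). Rpa1, the large single-strand binding subunit, had 406, 505 and 786 in PLKO_TNF and 537, 585 and 836 in PLKO_CTR libraries and an estimate of -0.24 (SE 0.11, adjusted p = 0.207). Rrm1 and Rpa1 were the 2 members lower in all 3 sets, against 26.6% of all genes. All 4 deoxynucleotide-supply genes were lower by value, with a median of -0.21.

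The uracil glycosylase gene Ung had 325, 423 and 403 normalised reads in PLKO_TNF and 342, 249 and 229.9 in PLKO_CTR libraries. It was slightly lower in set 1 and higher in sets 2 and 3, at 0.50 (SE 0.19, adjusted p = 0.141 in limma). Pcna, with the library values given above, had per-set log2 ratios of -0.10, 0.62 and 0.77 and an estimate of 0.43 (SE 0.17, adjusted p = 0.153). The members higher in all 3 sets were Gins1, Gins2 and Pola2, against 25.3% of all genes. Origin licensing had the highest group median, 0.47 over 4 genes, followed by Okazaki processing and uracil repair at 0.40 over 3. All 4 origin-licensing genes were nevertheless lower with TNF in set 1. At an unadjusted p under 0.05 in limma there were 0 of these 4.

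Without set 1, 8 members rose at an adjusted p under 0.05 in limma (21.6%, against 5.87% of all genes called higher), and the median was 0.40. They were Cdc45 at 1.13, Cdc6 at 1.08, Ung at 0.79, Pcna at 0.69, Fen1 at 0.69, Ccne2 at 0.69, Mcm3 at 0.62 and Mcm5 at 0.58. In set 1 alone the direction was opposite for most members. Without set 2 and without set 3 limma called 0 members, with medians of -0.01 and 0.03. Of the other replication genes 1 of 37 was called with all sets, Orc2, a subunit of the origin recognition complex. Orc2 had 820.0, 780.2 and 530.0 in PLKO_TNF and 608, 403 and 387 in PLKO_CTR libraries, and it rose by 0.61 on the log2 scale (SE 0.13, adjusted p = 0.0382 in limma). Without set 2 the adjusted p of Orc2 was 0.172. None of the 17 S-phase chromatin and repair genes was called in limma, and 4 had an unadjusted p under 0.05, against 29% of all genes.

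In knockdown cells no member passed the adjusted threshold for TNF in limma, edgeR or DESeq2, where limma called 2.71% of 12310 genes. At an unadjusted p under 0.05 there were 3 members, 2 higher and 1 lower (8.11%, against 17% of all genes). By value 27 of 37 were higher in shTon_TNF than in shTon_CTR cells (73%, against 49.1%), with a median of 0.09 beside -0.01 for all genes. The medians in sets 1, 2 and 3 were -0.20, 0.11 and 0.43. Without set 1 limma again called 0 members, and the median was 0.26. At an unadjusted p under 0.05 there were 6 members (16.2%), near the share of all genes (1945 of 12189). DESeq2 without set 1, a setting chosen after the data were seen, called 1 member, Rrm1, lower at an adjusted p of 0.0382, beside 1.47% of all genes called lower. Rrm1 had 1228, 864 and 1409.6 normalised reads in shTon_TNF and 1549.6, 1192 and 2804 in shTon_CTR libraries, lower in every set and most in set 3. Its estimate was -0.60 (SE 0.17, adjusted p = 0.108 in limma). Ung, with the values given above for shTon_TNF, had 247, 189.5 and 146 in shTon_CTR libraries, so that the groups did not overlap. Its estimate was 0.59 (SE 0.20, adjusted p = 0.156).

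Gins2 had 73.6, 63.8 and 86.3 normalised reads in shTon_TNF and 61.2, 51.6 and 28.6 in shTon_CTR libraries, also without overlap, at 0.71 (SE 0.27, adjusted p = 0.220 in limma). In control-vector cells Gins2 had 75.9, 89.6 and 68.5 in PLKO_TNF and 75.3, 59.7 and 40.6 in PLKO_CTR libraries. Ung and Gins2 were the 2 of 37 members whose shTon_TNF values were all above shTon_CTR, a share near the 5.53% of all genes. Over sets 2 and 3 alone this held for 16 members, against 16.9% of all genes. Rpa1 had 381, 430.0 and 480.0 in shTon_TNF and 505, 449.8 and 604 in shTon_CTR libraries and an estimate of -0.27 (SE 0.15, adjusted p = 0.399). It was lower with TNF in every set, as Rrm1 was. None of the 37 other replication genes and 17 S-phase chromatin and repair genes was called in limma, and 3 and 0 had an unadjusted p under 0.05. Without set 1 none was called either, and 4 of each list had an unadjusted p under 0.05.

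Whether TNF acted differently in knockdown and control-vector cells was tested as an interaction in 1 fit over all 12 libraries. No member and no other gene was called in limma (0%), edgeR or DESeq2, and 0 members had an unadjusted p under 0.05, against 1.78% of all genes. The members' median difference was -0.10. The members with the smallest p were Pcna at -0.34 (SE 0.25), Lig1 at -0.45 (SE 0.37), Gins3 at -0.36 (SE 0.34) and Mcm2 at -0.30 (SE 0.31), each with an adjusted p of 0.999. Lig1 had 53.7, 38.4 and 28.6 normalised reads in shTon_CTR and 44.6, 55.9 and 46.8 in PLKO_CTR libraries, and Gins3 had 90.4, 67.2 and 58.6 in shTon_CTR and 109, 54.4 and 69.7 in PLKO_CTR libraries. The per-set medians of the difference were 0.12, -0.34 and -0.04, which do not share a sign. Limma called 0 members again without set 1, where the median was -0.17, and without only the library labelled shTon_TNF of set 1, where it was -0.06. A p that misses the threshold does not show that the TNF effect was the same in both kinds of cell.

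The sets themselves were then compared. Among sets 1 to 3, limma called 11 of 37 members (29.7%), against 45.4% of all genes, so the share of members was below the background. Origin licensing gave 3 of 4 genes, G1/S regulators 2 of 3, and each of the other groups 1, except Okazaki processing and uracil repair with 0 of 3. Rrm1 averaged 1343 ± 181, 1171 ± 217 and 2291 ± 779 normalised reads in sets 1, 2 and 3 (SD, n = 4 libraries each, adjusted p = 0.00143 in limma). It was highest in set 3. Pcna averaged 2092 ± 412, 1227 ± 301 and 1326 ± 369 (adjusted p = 0.00344). It was highest in set 1, and sets 2 and 3 were alike.

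Orc1 had 100.3, 39.3 and 48.5 normalised reads in shTon_TNF, 84.8, 31.2 and 22.1 in shTon_CTR, 107, 96.1 and 93.8 in PLKO_TNF and 133, 61.2 and 34.3 in PLKO_CTR libraries of sets 1, 2 and 3. Set 1 was highest in every group (adjusted p = 0.0093 among sets in limma). Rpa1 (adjusted p = 0.0116) and Prim1 (adjusted p = 0.027) were highest in set 3 by their means, at 677 ± 165 and 515 ± 214. E2f1 averaged 284 ± 43.0, 182 ± 18.4 and 193 ± 24.7 in sets 1, 2 and 3 (adjusted p = 0.0142). The adjusted p in limma was 0.0196 for Mcm7, 0.0346 for Ccne1, 0.0421 for Gins3 and 0.0476 for Cdc6. Each had its highest mean in set 1. Mcm7 and Gins3 were also highest in set 1 in every group, whereas Ccne1 and Cdc6 were highest in set 2 in PLKO_TNF. Cdt1 was the remaining member called. Without set 1 the count was 3 (Rrm1, Prim1 and Rpa1, beside 24.2% of all genes), with fewer libraries in the fit, and without set 2 it was 5 (beside 27.7%). Set 1 also held the most muscle-marker reads, and their part in the result was not tested.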

How the data were processed

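The 12 libraries (4 groups of 3 sets) were aligned by the authors with Novoalign 2.08.01 to rn5 and normalised and compared with DESeq2, per the submitters' processing notes. The sources used here do not state the counter, annotation, strand setting or treatment of multi-mapped reads. Per the file headers, each of the 3 deposited tables holds a normalised signal per gene and library, a log2 fold change and an adjusted p-value, all made by the authors. Each deposited signal was a whole read count divided by 1 factor per library (100% of values whole within 0.001 read). The counts so recovered were joined over the 12899 common genes and scaled with DESeq2 size factors. Library values in the text are on that joint scale.

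The main test was limma 3.58.1 (R 4.3.3) on log2(value + 1) with a mean-variance trend, genes with a mean of at least 10, and the set as a block, adjusted by Benjamini-Hochberg over all genes (threshold 0.05). The first 3 comparisons used the deposited tables, and TNF in shTon cells, the interaction and the sets used the joint fit. The block was in the design because an earlier account of these files found the authors' results close to DESeq2 with a set term. Same-set libraries deviated together from their group means (18 correlations of 0.609 to 0.889, against -0.741 to 0.180 for 36 pairs from different sets), and no 2 libraries were alike within sampling noise (lowest chi-square per degree of freedom 28.1 over 66 pairs). On simulated counts, limma recovered 10.4% of genes with a log2 change of 0.5 and 70.1% of those with 1 for the knockdown without TNF, and 1.54% and 41.8% for the knockdown with TNF. Alternatives included edgeR 4.0.16 and DESeq2 1.42.0 on the recovered counts. Members, lists and tests were chosen with earlier results of these data known. Genes named with a test are the members past the threshold or, where fewer than 4 passed, the 4 with the smallest p, and up to 5 called genes of the other lists, of which not all are reported here; other members are given by role.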

Additional observations from a re-analysis of the deposited data

How the results depend on the processing

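Samples of the same set are paired by their numbers, as the correlations above show. Without the replicate block, limma called 0 genes for TNF in PLKO cells and 0 for either knockdown, and 14 for TNF in shTon cells, with 0 members in each. No interaction was called with or without the block. No call among members was lost without it, since none had been made. Without the mean-variance trend, the counts over all genes were 55, 0, 0 and 204 for TNF in PLKO cells, the knockdown without TNF, the knockdown with TNF and TNF in shTon cells. DESeq2 called 411, 363 and 684 genes for the knockdown without TNF, the knockdown with TNF and TNF in shTon cells, and 1 member for the knockdown with TNF. DESeq2 without set 1, chosen after seeing the data, called 197 genes and 3 members for the knockdown with TNF and 1 member for TNF in shTon cells. A pseudocount of 0.1 gave 2 and 12 genes for the knockdown without and with TNF. With all 12 libraries in 1 fit, 696 genes were called for TNF in PLKO cells, 3 for the knockdown without TNF and 444 for the knockdown with TNF, and 0 members in each. Leaving out 1 set at a time, the members called ranged from 0 to 8 for TNF in PLKO cells, 0 to 2 for the knockdown without TNF and 0 to 8 for the knockdown with TNF, with the highest count in each when set 1 was absent. Over all genes these fits gave 545 to 1410, 12 to 283 and 32 to 488 calls, and 26 to 201 for TNF in shTon cells. With 1 set left out, the members' median ranged from -0.427 to -0.250 for the knockdown without TNF, from -0.587 to -0.211 for the knockdown with TNF, from -0.0080 to 0.398 for TNF in PLKO cells (negative without set 2), from -0.0554 to 0.256 for TNF in shTon cells (negative without set 3) and from -0.170 to 0.0926 for the interaction (positive without set 2). The interaction of Gins3 ranged from -0.734 to 0.125 (positive without set 2). Among sets, 3 members and 3528 genes were called without the group term, and 3 to 9 members and 2946 to 3865 genes with 1 set left out. For single genes, 405 of 472 values kept their direction and side of the threshold, 56 lost the threshold, 10 gained it and 1 reversed. The cause of these shifts was not tested, except that leaving out a set leaves fewer libraries. With 3 sets and the depth and spread of these libraries, log2 differences near 0.5 were seldom called on simulated data. A missing call therefore says little about the members with small estimates. The separate parts of depth, number of libraries and spread were not tested.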

Other observations

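For TNF in PLKO cells, 3 of 26 genes of G1/S control, a list outside the replication machinery, were called in limma, 1 higher and 2 lower, beside 9.62% of all genes. Cdkn2c, an inhibitor of the cyclin D kinases, had 78.4, 76.8 and 122 normalised reads in PLKO_TNF and 145, 208 and 339 in PLKO_CTR libraries of sets 1, 2 and 3. It fell by 1.26 on the log2 scale (SE 0.18, adjusted p = 0.0118 in limma), without overlap between the groups. Myc, a transcription factor that promotes growth, had 695, 905 and 735 in PLKO_TNF and 485, 388 and 284 in PLKO_CTR libraries and rose by 1.04 (SE 0.17, adjusted p = 0.0192). In knockdown cells Myc had 627, 694 and 584 in shTon_TNF and 311, 341 and 229 in shTon_CTR libraries and rose by 1.13 (SE 0.16, adjusted p = 0.00519), also without set 1 (1.19, adjusted p = 0.0141) but not without set 2 (1.18, adjusted p = 0.191). Cdkn1b, the kinase inhibitor p27, had 357, 448 and 590.5 in shTon_TNF and 699, 776 and 981 in shTon_CTR libraries and fell by 0.83 (SE 0.18, adjusted p = 0.0422), a call lost without any 1 set (adjusted p of 0.118 to 0.296). Each of these genes was higher, or lower, with TNF in all 3 sets named.

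Mitosis genes gave 3 of 20 called for TNF in PLKO cells, all lower, against 4.65% of all genes called lower. By value 17 of 20 were lower (against 51.7% of all genes), with a median of -0.24, whereas 28 of the 37 replication genes were higher. Cenpf, a kinetochore protein, had 288, 354 and 742 normalised reads in PLKO_TNF and 424, 768 and 1876 in PLKO_CTR libraries and fell by 1.00 (SE 0.16, adjusted p = 0.0172 in limma). Kif11, a spindle motor, had 158, 189 and 227 in PLKO_TNF and 256, 256 and 381 in PLKO_CTR libraries and fell by 0.63 (SE 0.13, adjusted p = 0.0346), a call also lost without any 1 set (adjusted p of 0.0681 to 0.0856). Both were lower with TNF in every set, set 1 included, where most replication genes were lower as well. For TNF in shTon cells 18 of 20 mitosis genes were lower by value (median -0.39), with 0 called in limma. With all sets 4 had an unadjusted p under 0.05, against 17% of all genes. Without set 1 limma again called 0 mitosis genes. In that fit 8 had an unadjusted p under 0.05, against 1945 of 12189 genes. For the knockdown, 19 of 20 without TNF (median -0.29) and 18 of 19 with TNF (median -0.39) were lower by value, the direction of most replication genes. Of all genes 49% and 47.6% were lower. In limma 0 mitosis genes were called, and 0 and 1 had an unadjusted p under 0.05, against 2108 of 12383 and 2079 of 12213 genes. Without set 1, where limma called 1.76% of all genes lower without TNF and 2.51% with TNF, it called 2 of 20 and 4 of 19 mitosis genes, all lower. These were Top2a and Mki67 in both, and with TNF also Kif20a and Cenpf, all named after their values were seen. The difference between the mitosis and replication genes was not tested. Of the other lists' genes called among sets, Ccnd2, a D-type cyclin, had 125, 223 and 7.57 in shTon_TNF, 86.7, 215 and 11.7 in shTon_CTR, 66.1, 96.1 and 2.54 in PLKO_TNF and 81.6, 119 and 1.04 in PLKO_CTR libraries (adjusted p = 3.2e-06 among sets in limma), lowest in set 3 in every group.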
